A study of Mus musculus with 28 samples.

Results

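Transcripts of the Toll-like receptors Tlr1, Tlr2, Tlr4, Tlr5, Tlr6, Tlr7, Tlr8 and Tlr9 and of their adaptor Myd88 were followed on 28 mouse arrays of splenic dendritic cells. These 9 genes were taken by name, and a gene was read from a probe set that the platform annotation gives to that gene alone. Of the 9 genes, 8 had such a probe set, 1 each, out of 19938 genes with one; Tlr5 was not analysed here. Levels are log2 values, so a difference of 1 is a doubling. All 8 genes were above 5 on at least 3 arrays, the threshold for testing that 10452 genes passed. Tlr1, Tlr2, Tlr9 and Myd88 were above 5 on all 28 arrays, Tlr7 on 26, Tlr4 on 25, Tlr6 on 24 and Tlr8 on 5.

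The cells came from 3-month-old C57BL6/J wild-type mice and from mice lacking NOX2 (gp91phox, gene Cybb), which forms superoxide in phagocytes. Among wild-type arrays, 7 were vehicle, 4 angiotensin II (written Ang II below), 4 Ang II together with 2-HOBA, and 6 Ang II together with hydralazine and hydrochlorothiazide (Hyd/HCTZ). Knockout arrays comprised 3 with vehicle and 4 that received Ang II. This hormone raises blood pressure, 2-HOBA (2-hydroxybenzylamine) scavenges reactive products of lipid oxidation, hydralazine widens blood vessels and hydrochlorothiazide is a diuretic. Titles of knockout arrays that write Ang I have descriptions that write Ang II, which were followed. The labels leave it unclear whether mice or isolated cells were treated, and they give no dose, duration or sort gate in what was used here. The labels call the arrays biological replicates without saying which animals each came from, so the errors below measure the spread between arrays.

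Toll-like receptors recognise microbial molecules and let dendritic cells switch on cytokines and antigen presentation. Tlr1, Tlr2, Tlr4, Tlr5 and Tlr6 work mainly at the cell surface: the Tlr2 protein pairs with the Tlr1 or the Tlr6 protein to bind bacterial lipopeptides, Tlr4 responds to lipopolysaccharide and Tlr5 to flagellin. Tlr7, Tlr8 and Tlr9 sit in endosomes, where Tlr7 and Tlr8 bind RNA and Tlr9 binds DNA rich in unmethylated CpG. Myd88 carries the signal of all these receptors to kinases of the IRAK family, and from there to NF-κB and interferon regulatory factors. In the RefSeq gene order Tlr1 and Tlr6 lie next to each other, with 0 protein-coding genes between them, as do Tlr7 and Tlr8.

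Promoter sequence is shown for Tlr2 and Myd88, the genes with the most firmly higher levels below, and for Tlr9, an endosomal receptor whose difference stayed close to that of all genes. The RefSeq promoter table (GRCm38.p6) held 9 windows for 7 of the 9 genes, each with 250 bases before and 50 after a transcript start. For Myd88 and Tlr9 the 250 bases before the start are printed 5′ to 3′, at chr9:119340019-119340268 on the minus strand and chr9:106222348-106222597 on the plus strand. The Tlr2 window lies mostly inside the annotated gene, so only 30 bases around each of 2 matches are printed, at chr3:83841761-83841790 and chr3:83841597-83841626 on the minus strand. Capitals mark the motif matches described after them.
Tlr2 upstream match: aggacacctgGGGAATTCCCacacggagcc
Tlr2 match at the start: ccctgacctgGGGACATCCCcttccctcac
Myd88: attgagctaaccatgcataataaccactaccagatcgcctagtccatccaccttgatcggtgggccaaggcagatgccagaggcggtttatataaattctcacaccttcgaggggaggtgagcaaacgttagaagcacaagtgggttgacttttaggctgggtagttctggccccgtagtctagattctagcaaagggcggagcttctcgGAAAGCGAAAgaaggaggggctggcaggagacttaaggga
Tlr9: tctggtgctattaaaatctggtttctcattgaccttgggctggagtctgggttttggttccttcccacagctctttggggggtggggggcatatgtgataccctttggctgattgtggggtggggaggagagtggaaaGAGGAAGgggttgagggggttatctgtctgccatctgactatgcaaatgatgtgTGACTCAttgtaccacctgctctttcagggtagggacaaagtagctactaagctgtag

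The Tlr2 capitals match the NF-κB consensus, which 8.46% of all 32851 windows hold; of the 9 windows it was found in that of Tlr2. The upstream match begins at position -172 from the start and overlaps a further match beginning at -173, and the other begins at -8. The Myd88 capitals, at -40, match the element bound by interferon regulatory factors, GAAA, 2 unspecified bases and GAAA, which 3.44% of all windows hold and which was also found in a Tlr6 window. In Tlr9, GAGGAAG, the core bound by the myeloid factor PU.1, begins at -112 (13.6% of windows), and TGANTCA, the AP-1 site, begins at -58 (7.81%). A Tlr1 window also held GAGGAAG, and Tlr9 held it once more, on the other strand after the start. Both strands were searched, and a match describes letters, not a bound site.

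Some arrays stood apart. Cybb, the gene named in the knockout label, ran from 6.41 to 7.18 on the 7 knockout arrays and from 8.35 to 9.75 on the wild-type arrays, except that the array labelled wild-type vehicle replicate 2 was at 6.34, against its label. That array also had the narrowest interquartile range, 1.92 against up to 3.44, and results with vehicle are given with and without it. Among 6617 probe sets with no gene name, the leading principal component (27.7% of variance) placed the arrays in 3 sets. Set 1 held 12 arrays (all knockouts, the wild-type vehicle arrays 1, 2 and 3, and the Ang II arrays 1 and 2), set 2 held 10 (2-HOBA and the remaining vehicle and Ang II arrays), and set 3 the 6 Hyd/HCTZ arrays. Hyd/HCTZ and set 3 therefore cannot be told apart. The 6 genes taken to define dendritic cells (Itgax, Flt3, Zbtb46, Cd74, H2-Aa and Ciita) were above 5 on all 28 arrays.

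**Figure D1:**
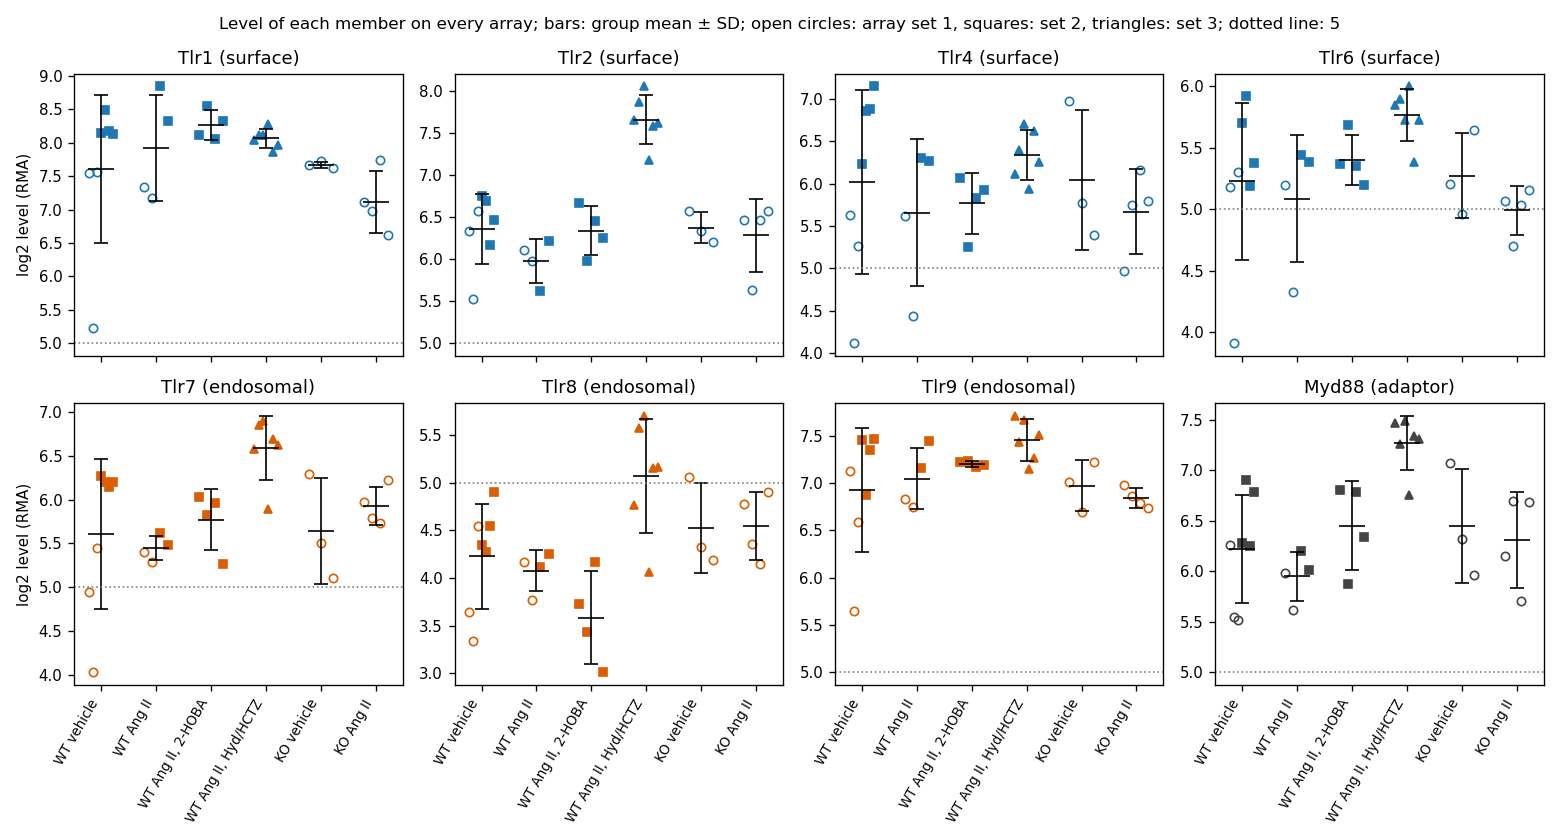
Log2 level of each gene on every array (y axis) in the 6 groups (x axis), with group means and SDs as black bars and marker shapes for the 3 array sets. The 6 Hyd/HCTZ arrays lie above all others for Tlr2, from 7.18 to 8.05. A wild-type vehicle array of set 1 is lowest for every gene but Tlr8, the array labelled replicate 2 except for Myd88 (replicate 3).

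Among the surface receptors, Tlr2 was highest with Hyd/HCTZ. Its levels there ran from 7.18 over a median of 7.63 to 8.05. With Ang II alone its 4 values were 6.11, 5.97, 5.62 and 6.21, and with vehicle they ran from 5.52 over 6.46 to 6.75. With 2-HOBA they were 6.66, 5.98, 6.45 and 6.25. Every Hyd/HCTZ array was above every other array, and the other 5 groups overlapped one another. The knockout arrays read 6.57, 6.34 and 6.20 with vehicle and 6.46, 5.63, 6.46 and 6.57 with Ang II.

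Tlr1, a partner of Tlr2, did not share that pattern. It averaged 8.06 ± 0.14 (SD, n = 6) with Hyd/HCTZ, 7.92 ± 0.80 (n = 4) with Ang II and 8.26 ± 0.23 (n = 4) with 2-HOBA. Vehicle arrays averaged 7.61 ± 1.11 (n = 7) and ran from 5.22, on the array labelled vehicle replicate 2, to 8.50. The knockouts averaged 7.67 ± 0.047 (n = 3) with vehicle and 7.11 ± 0.47 (n = 4) with Ang II, the lowest of its 6 group means. Each group overlapped its neighbours in that order. Tlr6, the other partner of Tlr2, had its highest mean with Hyd/HCTZ, 5.77 ± 0.21, against 5.09 ± 0.52 with Ang II and 5.23 ± 0.64 with vehicle. Its remaining means were 5.40 ± 0.20 with 2-HOBA, 5.27 ± 0.35 in knockout vehicle and 4.99 ± 0.20 in knockout Ang II, and all neighbours overlapped.

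Tlr4, the lipopolysaccharide receptor, varied more within groups than between them. Its means were 6.33 ± 0.30 with Hyd/HCTZ, 6.02 ± 1.09 with vehicle, 5.66 ± 0.87 with Ang II and 5.76 ± 0.36 with 2-HOBA. In the knockouts they were 6.04 ± 0.83 with vehicle and 5.67 ± 0.50 with Ang II. Vehicle arrays alone spanned 4.12 to 7.15, which covered every other array in the series.

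Of the endosomal receptors, Tlr7 ran from 5.89 over a median of 6.66 to 6.90 with Hyd/HCTZ. With Ang II it read 5.41, 5.29, 5.62 and 5.48, below every Hyd/HCTZ array. Vehicle arrays ran from 4.03 over 6.15 to 6.27 and so overlapped Hyd/HCTZ, as did the 2-HOBA arrays (6.03, 5.82, 5.96 and 5.27). The knockout values were 6.30, 5.51 and 5.11 with vehicle and 5.97, 5.79, 5.74 and 6.22 with Ang II, within the range of the wild-type arrays.

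Tlr8 was a dim probe set, above 5 on 4 Hyd/HCTZ arrays and on 1 knockout vehicle array only. With Hyd/HCTZ it ran from 4.07 over 5.16 to 5.70, and with Ang II it read 4.17, 3.77, 4.12 and 4.25. Its other group means were 4.23 ± 0.55 with vehicle, 3.58 ± 0.49 with 2-HOBA, 4.52 ± 0.47 in knockout vehicle and 4.55 ± 0.35 in knockout Ang II. Since most of these values are under 5, no fold is given for it and the size of its fitted differences is not read; with 5 in place of the dim Ang II or vehicle mean, its difference with Hyd/HCTZ would not reach the shift of all genes (-0.25 and -0.24 relative to it). Tlr9, the DNA receptor, was the steadiest of the endosomal receptors, with means from 6.84 ± 0.11 in knockout Ang II to 7.46 ± 0.22 with Hyd/HCTZ. It averaged 6.93 ± 0.65 with vehicle, 7.05 ± 0.32 with Ang II, 7.20 ± 0.030 with 2-HOBA and 6.97 ± 0.27 in knockout vehicle, and all neighbours in that order overlapped.

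The adaptor Myd88 ran from 6.75 over 7.33 to 7.49 with Hyd/HCTZ. With Ang II it read 5.98, 5.62, 6.20 and 6.01, all below the Hyd/HCTZ arrays, and with 2-HOBA 6.81, 5.88, 6.78 and 6.35. Vehicle arrays ran from 5.52 over 6.26 to 6.91. The knockouts read 7.07, 6.32 and 5.97 with vehicle and 6.15, 6.69, 5.70 and 6.68 with Ang II, so the highest knockout vehicle array fell within the Hyd/HCTZ range.

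When Hyd/HCTZ was added to Ang II, Tlr2, Myd88 and Tlr7 rose beyond the change of all genes. The median tested gene was itself 0.32 higher with Hyd/HCTZ, so differences are given as deposited and relative to that shift. Tlr2 was 1.68 higher (SE 0.216, adjusted p = 4.00e-07), or 1.36 relative to the shift (95% interval 0.92 to 1.80, adjusted p = 1.20e-05), a 2.57-fold difference. Myd88 was 1.32 higher (SE 0.263, adjusted p = 0.000149) and 1.00 relative to the shift (0.46 to 1.54, adjusted p = 0.00258). Tlr7 was 1.14 higher (SE 0.316, adjusted p = 0.00358) and 0.82 relative to the shift (0.18 to 1.47, adjusted p = 0.0322). Tlr2, Tlr7 and Myd88 were also the genes of the 8 with no overlap between both groups, a separation seen upward in 34.4% of all tested genes.

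As deposited, 5 of the 8 genes were called higher and 0 lower, where 40.8% of all tested genes were called higher and 11.9% lower. The 5 include Tlr8, which met the threshold for testing only through its 4 Hyd/HCTZ arrays above 5, so its call is no separate support. Beyond the shift 3 were called higher and 0 lower, against 23.7% and 25% of all genes. Tlr8 (fitted difference 0.99, SE 0.290, adjusted p = 0.00545) and Tlr6 (0.68 higher, SE 0.258, adjusted p = 0.0277) passed only as deposited. Against the shift they differed by 0.67 (adjusted p = 0.0552) and 0.36 (adjusted p = 0.249). Tlr4 (0.68 as deposited, adjusted p = 0.185), Tlr9 (0.41, adjusted p = 0.146) and Tlr1 (0.15, adjusted p = 0.772) passed on neither scale, and relative to the shift the Tlr1 difference was -0.17 (-0.98 to 0.63).

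The Tlr2 and Myd88 calls held on both scales with any 1 array left out. Relative to the shift, the Tlr7 call was lost in 6 of 10 such fits, without Ang II replicate 1 (0.83, adjusted p = 0.0611), 2 (0.80, 0.0697) or 4 (0.80, 0.0629), or Hyd/HCTZ replicate 2 (0.77, 0.0597), 3 (0.78, 0.0553) or 5 (0.79, 0.0539). The Tlr6 call as deposited was lost without Ang II replicate 2 (0.43, adjusted p = 0.188) or Hyd/HCTZ replicate 4 (0.63, adjusted p = 0.0502). Relative to the shift, Tlr8 gained a call without Hyd/HCTZ replicate 1 (0.74, adjusted p = 0.0469) or 4 (0.84, adjusted p = 0.0129). Such a gain adds no support, since Tlr8 was tested only through its Hyd/HCTZ arrays. The shift itself was -0.15 over all genes without a filter on dim genes, 0.64 over genes above 7 and 0.026 after quantile normalization.

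**Figure D2:**
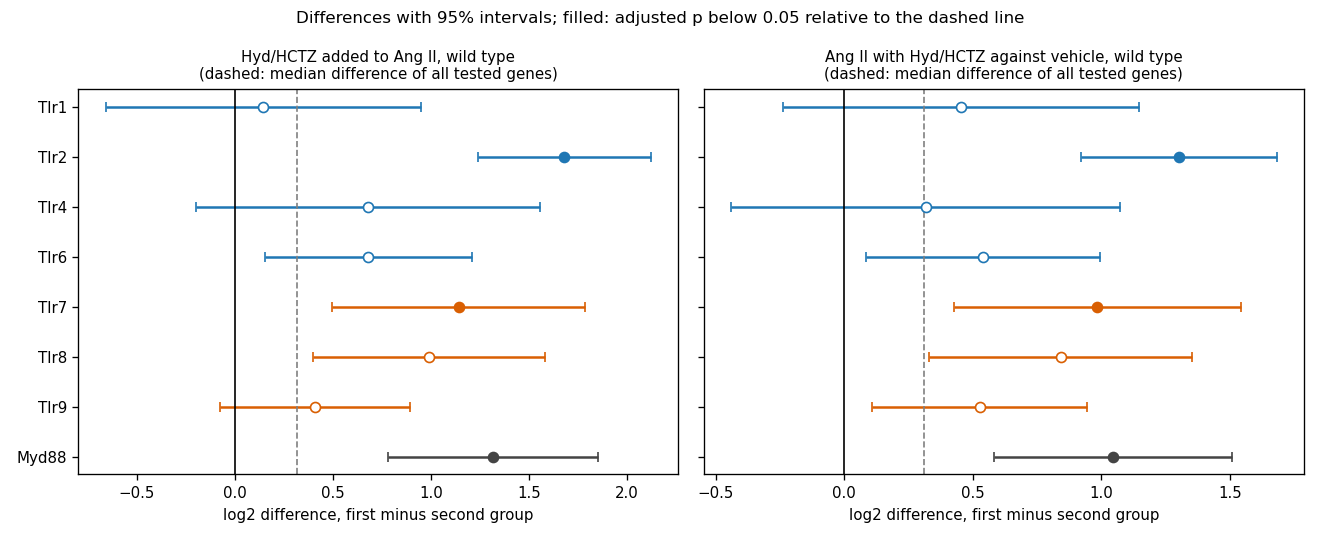
Log2 difference of each gene (x axis, points with 95% intervals) for Hyd/HCTZ with Ang II against Ang II alone (left) and against vehicle (right), with a dashed line at the median difference of all tested genes (0.32 left, 0.31 right). Filled points, Tlr2, Tlr7 and Myd88 in both panels, passed the test against the dashed line.

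Against vehicle, Ang II with Hyd/HCTZ gave higher Tlr2, Myd88 and Tlr7 as well, using the same Hyd/HCTZ arrays. The shift of all genes was 0.31. Tlr2 was 1.30 higher (SE 0.186, adjusted p = 1.34e-06) and 0.99 relative to the shift (0.61 to 1.37, adjusted p = 7.55e-05), a 1.98-fold difference. Myd88 was 1.05 higher (SE 0.226, adjusted p = 0.000302), 0.74 relative to the shift (adjusted p = 0.0075). Tlr7 was 0.99 higher (SE 0.272, adjusted p = 0.00318), 0.67 relative to the shift (adjusted p = 0.0388). Of the 8 genes, Tlr2 alone separated the groups, as 25% of tested genes did upward.

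In this comparison 6 genes were called higher as deposited, where 43.4% of all genes were, and 3 relative to the shift, where 25.3% were; none of the 8 was called lower (13.2% and 27% of all genes). Tlr8 (0.84, adjusted p = 0.0055), Tlr6 (0.54, adjusted p = 0.0394) and Tlr9 (0.53, adjusted p = 0.0291) passed only as deposited. Here too Tlr8 owed its place in the test to the Hyd/HCTZ arrays. Tlr1 (0.46, adjusted p = 0.252) and Tlr4 (0.32, adjusted p = 0.474) did not pass. Without the array labelled vehicle replicate 2, 4 genes were called as deposited and 3 relative to the shift: Tlr6 was then 0.32 (adjusted p = 0.11) and Tlr9 0.31 (adjusted p = 0.0721), while Tlr2 was 1.16 (adjusted p = 1.01e-06), Myd88 0.94 (adjusted p = 0.000744) and Tlr7 0.72 (adjusted p = 0.00576).

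Leaving out other single arrays ended some of the weaker calls against vehicle. Tlr9 also lost its call without vehicle replicate 3 (0.47, adjusted p = 0.0631) or Hyd/HCTZ replicate 1 (0.48, 0.0658) or 3 (0.49, 0.0638). Tlr6 lost it in 8 of 13 fits, also without vehicle replicate 1 (0.53, 0.0577) or 6 (0.53, 0.0525) or Hyd/HCTZ replicate 1 (0.52, 0.0657), 2 (0.51, 0.0699), 3 (0.55, 0.0565), 4 (0.49, 0.0764) or 6 (0.55, 0.0546). Tlr7 lost its call relative to the shift in 7 of 13, without vehicle replicate 1 (0.57, 0.0876) or 3 (0.66, 0.0582) or Hyd/HCTZ replicate 1 (0.68, 0.053), 2 (0.62, 0.0762), 3 (0.64, 0.0704), 5 (0.64, 0.0689) or 6 (0.67, 0.0587). Tlr8 gained one without vehicle replicate 7 (0.61, 0.0419) or Hyd/HCTZ replicate 4 (0.70, 0.0159). These gains add no support, since Tlr8 was tested only through its Hyd/HCTZ arrays, and the size of its fitted differences is not read.

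Surface and endosomal receptors did not split cleanly. With Hyd/HCTZ added to Ang II, the 4 measured surface receptors had a median difference of 0.68 (0.36 relative to the shift) and the 3 endosomal ones 0.99 (0.67 relative), beside 0.32 over all tested genes. Each class had 2 called genes as deposited, Tlr2 and Tlr6 at the surface and Tlr7 and Tlr8 in endosomes, and 1 relative to the shift. Of these, Tlr8 was tested only because of its levels with Hyd/HCTZ. Against vehicle the medians were 0.50 (0.19 relative) and 0.84 (0.53 relative). The endosomal medians are the fitted values of the dim Tlr8; with 5 for its dim mean they become those of Tlr9, 0.092 relative to the shift against Ang II and 0.22 against vehicle, so the order of the classes against Ang II turns. The surface medians also rest on single arrays: without the array labelled vehicle replicate 2 the one against vehicle was 0.19 (-0.020 relative), and without Ang II replicate 2 the one against Ang II was 0.35 (0.058 relative). The array-to-array SD of such medians within groups was 0.48 for the surface and 0.54 for the endosomal receptors, and the largest single difference, that of Tlr2, belonged to the class with the smaller median. No test of one class against the other was made.

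Marker genes of dendritic cell types and of other cells moved with Hyd/HCTZ too. Relative to the shift, against Ang II, all 6 markers of type 1 conventional dendritic cells were called higher, as were 4 of 6 defining dendritic cell genes, 3 of 7 for type 2 conventional (1 lower), 4 of 8 plasmacytoid (1 lower), 4 of 4 monocyte and 6 of 10 red pulp macrophage genes, where 23.7% of all tested genes were. Called lower, as 25% of all tested genes were, were 9 of 10 B cell, 5 of 7 T and NK cell, 5 of 7 neutrophil and 7 of 7 erythroid genes. The summed level (log2) of the type 1 conventional markers ran from 11.37 to 11.64 with Hyd/HCTZ. With Ang II it ran from 9.67 to 10.33 and with vehicle from 9.71 to 10.44. Of 7 listed monocyte genes 4 were tested. Their summed level ran from 9.54 to 10.36 with Hyd/HCTZ against 8.27 to 9.03 with Ang II and 8.08 to 9.83 with vehicle. The summed red pulp macrophage level ran from 11.24 to 12.63 against 10.21 to 11.32 and 9.98 to 12.31, and the B cell level from 9.24 to 10.38 against 11.22 to 12.38 and 10.17 to 12.21. The lowest value of a defining dendritic cell gene on any array was 5.07, that of Zbtb46, close to the limit of 5. The part of these cell types in the receptor differences was not tested. In such bulk samples fewer cells of a type and less RNA per cell cannot be told apart.

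In the comparisons without Hyd/HCTZ limma called none of the 8 genes, and none of them had an unadjusted p under 0.05. Ang II against vehicle in wild-type cells gave differences from -0.38 for Tlr2 (SE 0.210, adjusted p = 1.00) to 0.31 for Tlr1 (SE 0.382, adjusted p = 1.00). There, 0% of all tested genes were called and 266 (2.54%) had an unadjusted p under 0.05. The intervals reached from -0.81 to 0.049 for Tlr2 and from -1.21 to 0.49 for Tlr4. Without the array labelled vehicle replicate 2 all 8 differences were below 0, Tlr2 at -0.52 (adjusted p = 0.482) and Tlr1 at -0.088 (adjusted p = 0.924). That array's median over tested genes was 5.47, against 5.80 to 6.10 on the other vehicle arrays. Leaving it out therefore raises the vehicle level of genes in general. The 8 differences are as deposited, not relative to a shift of all genes.

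Adding 2-HOBA to Ang II gave 7 differences above 0 and 1 below, that of Tlr8, whose means were both under 5. The highest was that of Myd88, 0.50 (SE 0.288, 95% interval -0.086 to 1.09, adjusted p = 0.977). Of all tested genes 0% were called and 379 (3.63%) had an unadjusted p under 0.05. Tlr2 was 0.36 higher with 2-HOBA (SE 0.237, adjusted p = 0.977), which did not pass. Within array set 2, which holds all 2-HOBA arrays and 2 Ang II arrays, Myd88 differed by 0.35 and Tlr2 by 0.42, while Tlr4 differed by -0.52 and Tlr1 by -0.32, with adjusted p of 0.999 each.

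In NOX2 knockout cells Ang II against vehicle gave differences from -0.56 for Tlr1 (SE 0.465, adjusted p = 1.00) to 0.29 for Tlr7 (SE 0.374, adjusted p = 1.00); 0% of genes were called and 296 (2.83%) had an unadjusted p under 0.05. Knockout and wild type with vehicle differed by 0.012 in Tlr2 and by 0.23 in Myd88 (SE 0.281, adjusted p = 0.978), where 0.00957% of genes, 1 gene, were called and 657 (6.29%) had an unadjusted p under 0.05. With Ang II the knockout had Tlr1 -0.81 below wild type (SE 0.430, 95% interval -1.69 to 0.07, adjusted p = 0.765) and Tlr7 0.48 above it (SE 0.346, adjusted p = 0.873); 5 genes, 0.0478%, were called and 714 (6.83%) had an unadjusted p under 0.05. The difference between the Ang II effects of both genotypes ran from -0.87 for Tlr1 (SE 0.601, adjusted p = 1.00) to 0.45 for Tlr7 (SE 0.484, adjusted p = 1.00), where 0% of genes were called and 257 (2.46%) had an unadjusted p under 0.05. These comparisons share arrays.

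Both knockout comparisons that use wild-type vehicle moved without the array labelled vehicle replicate 2, and limma again called none of the 8 genes. Knockout against wild type with vehicle turned sign in 6 of the 8: Tlr1 was then -0.34 (adjusted p = 0.537), Tlr4 -0.29 (adjusted p = 0.737), Tlr7 -0.23 (adjusted p = 0.69), Tlr6 -0.17 (adjusted p = 0.708), Tlr9 -0.17 (adjusted p = 0.67) and Tlr2 -0.13 (adjusted p = 0.783). Myd88 stayed above 0 at 0.12 (adjusted p = 0.862). The difference between the Ang II effects was then -0.47 for Tlr1 (adjusted p = 0.947) and 0.71 for Tlr7 (adjusted p = 0.938). All these values are as deposited. The array left out had a median over tested genes of 5.47, against 5.80 to 6.10 on the other vehicle arrays. Its removal moves genes in general, and whether the turned signs go beyond that move was not tested.

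**Figure D3:**
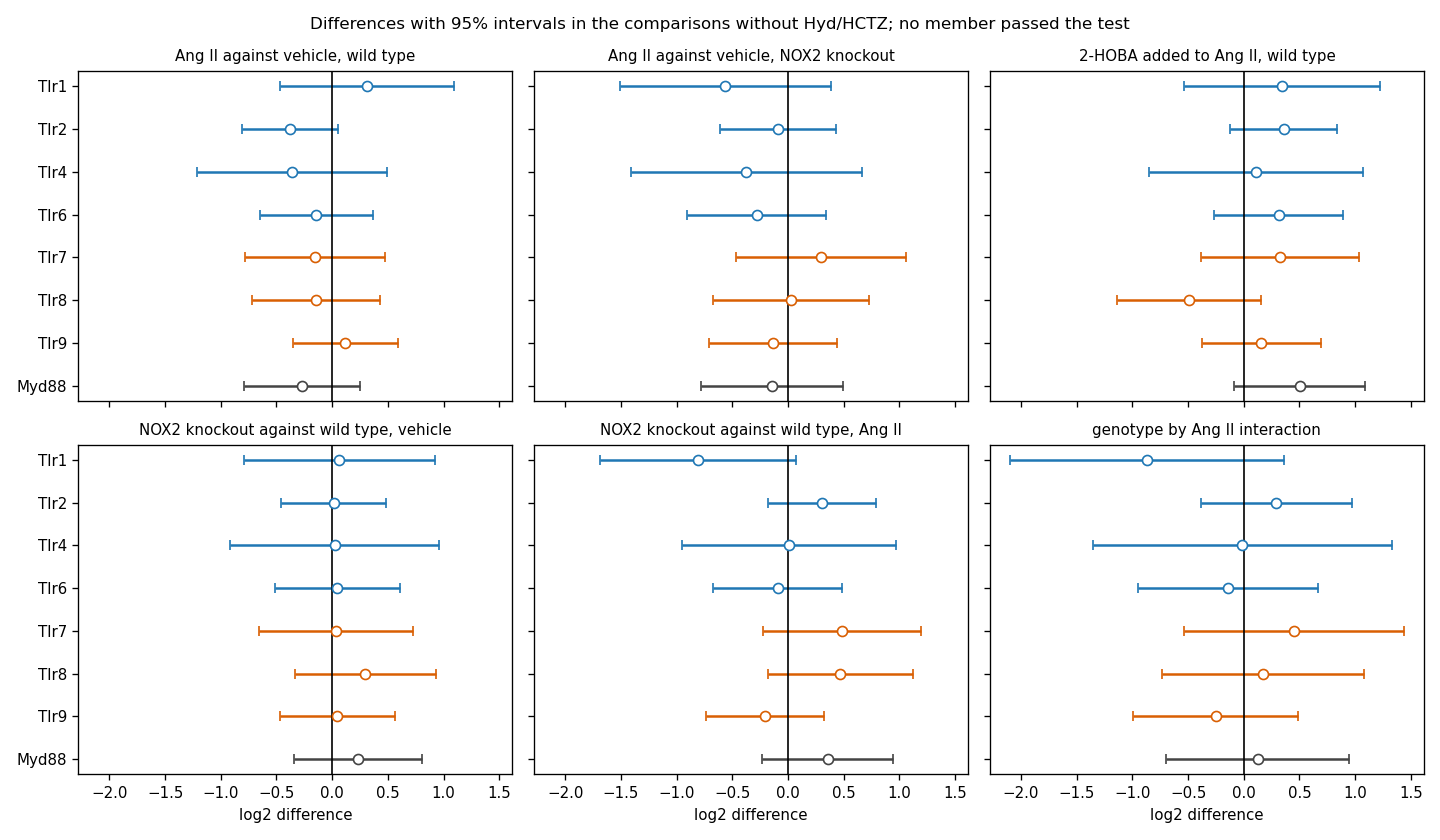
Log2 difference of each gene (x axis, points with 95% intervals, zero as a line) in the 6 comparisons without Hyd/HCTZ; open points mark genes that passed no test. All 48 intervals reach across 0, those of Tlr1 and Tlr4 are widest, and the group means behind the Tlr8 points are all under 5.

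Several receptors differed between array sets within a group. In vehicle arrays Tlr4 averaged 5.00 ± 0.79 in set 1 (n = 3) and 6.78 ± 0.39 in set 2 (n = 4), and Tlr7 4.81 ± 0.72 and 6.20 ± 0.049. Tlr1 averaged 6.77 ± 1.34 in set 1 and 8.24 ± 0.17 in set 2, and in Ang II arrays 7.26 ± 0.11 (n = 2) and 8.58 ± 0.37 (n = 2). Tlr2 differed less between sets, with 6.14 ± 0.55 and 6.52 ± 0.26 in vehicle arrays and 6.04 ± 0.094 and 5.91 ± 0.42 in Ang II arrays. All knockout arrays are in set 1. The knockout vehicle arrays were above the wild-type vehicle arrays of set 1 in Tlr4 by 1.04 (adjusted p = 0.338) and in Tlr7 by 0.83 (adjusted p = 0.321). Without the array labelled vehicle replicate 2 those values were 0.60 (adjusted p = 0.706) and 0.44 (adjusted p = 0.675). Within set 1, knockout and wild type with Ang II differed in Tlr1 by -0.15 (adjusted p = 1.00) in place of -0.81.

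**Figure D4:**
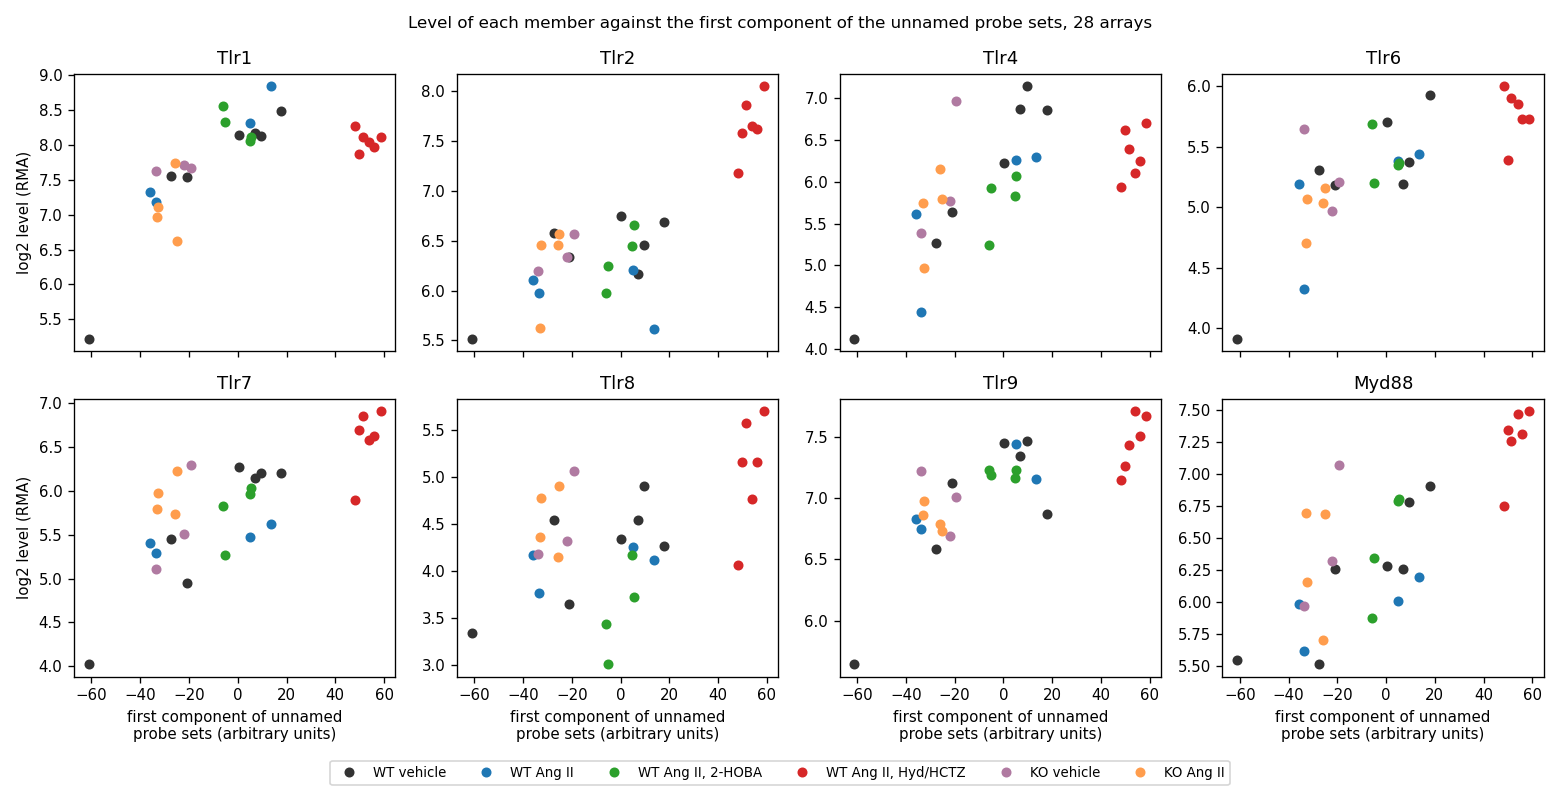
Log2 level of each gene (y axis) against the first component of the unnamed probe sets (x axis, arbitrary units), 1 point per array, coloured by group. Set 1 lies from -61.1 to -19.3, set 2 from -5.91 to 17.8 and set 3, the Hyd/HCTZ arrays, from 48.2 to 58.7; Tlr2 stands apart in set 3, while Tlr1 and Tlr4 are lowest toward the left of set 1.

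With wild-type arrays of sets 2 and 3 alone, Hyd/HCTZ still gave higher Tlr2 and Myd88 on both scales. Against the Ang II arrays of set 2, relative to the shift, Tlr2 was 1.5 higher (adjusted p = 3.39e-05), Myd88 0.92 (adjusted p = 0.0043) and Tlr7 0.79 (adjusted p = 0.00621). Tlr1 was then called lower, at -0.52 as deposited (adjusted p = 0.0138) and -0.77 relative to the shift (adjusted p = 0.00101). Against the vehicle arrays of set 2, Tlr2 was 1.01 higher relative to the shift (adjusted p = 0.000102) and Myd88 0.58 (adjusted p = 0.015), but Tlr7 differed by 0.25 (adjusted p = 0.225) and Tlr4 was called lower at -0.58 (adjusted p = 0.0153).

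The pathway around the receptors held 49 listed genes, of which 41 were tested. With Hyd/HCTZ against Ang II, 11 of the 41 were called higher and 5 lower relative to the shift (21 and 1 as deposited), with a median of 0.19 relative to it; 23.7% of all tested genes were called higher and 25% lower. Against vehicle, 13 were higher and 5 lower, with a median of 0.25, beside 25.3% and 27% of all genes. No gene of the list was called in any comparison without Hyd/HCTZ. Values in the following lines are differences from Ang II relative to the shift. Where a difference is given as a bound with 5 in place of a dim mean, the bound itself was not tested. The adjusted p beside it is that of the fitted difference.

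Of 5 co-receptors and accessory proteins tested, 2 rose. Cd14, which hands lipopolysaccharide to Tlr4, averaged 8.56 with Hyd/HCTZ and 5.39 with Ang II, a difference of 2.85 (adjusted p = 1.26e-06). Ly96, which encodes MD-2, the lipopolysaccharide-binding partner of Tlr4, averaged 6.19 against 4.34, at least 0.88 higher with 5 in place of the dim mean (adjusted p = 0.000944). Tlr4 itself did not pass in the same comparison. Both rose against vehicle too, Cd14 by 2.00 (adjusted p = 1.46e-05) and Ly96 by at least 0.88 (adjusted p = 0.00352).

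Of 10 genes for folding, traffic and cleavage of the receptors, 3 rose against Ang II. They were Slc15a3, an endolysosomal transporter (1.5, adjusted p = 0.000502), and the lysosomal proteases Ctsl (1.31, adjusted p = 0.00174) and Ctsb (0.91, adjusted p = 0.0213), which can trim endosomal receptors. Against vehicle Slc15a3 (1.26, adjusted p = 0.000511) and Ctsl (1.29, adjusted p = 0.000377) rose, and 2 genes were lower relative to the shift but 0 as deposited, among them 5430427O19Rik, the files' name for Tasl, an adaptor in the Tlr7 and Tlr9 pathway (-0.69, adjusted p = 0.0142, and -0.38, adjusted p = 0.166, as deposited). Of 3 other adaptors, Ticam1, which encodes TRIF, rose by 0.66 (adjusted p = 0.003) against Ang II and by 0.67 (adjusted p = 0.000586) against vehicle. Ticam2, which links Tlr4 to TRIF, rose against vehicle by 0.41 (adjusted p = 0.0343).

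The kinases and ubiquitin ligases below Myd88 went both ways, with 2 of 13 higher and 4 lower. Traf6, the ubiquitin ligase that IRAK kinases engage, rose by 0.88 (adjusted p = 0.000211). Ikbke, a kinase related to Tbk1, averaged 4.58 with Hyd/HCTZ and 5.79 with Ang II, a difference of -1.10 or lower with 5 in place of the dim mean (adjusted p = 1.55e-07). Tab1, a partner of the kinase Map3k7, averaged 4.89 against 5.18 and was lower only relative to the shift, at -0.50 or lower (adjusted p = 0.00109), not as deposited (adjusted p = 0.0934). Against vehicle Traf6 rose by 0.89 (adjusted p = 2.61e-05), and Ikbke (-0.87 or lower, adjusted p = 1.03e-07) and Tab1 (-0.46 or lower, adjusted p = 0.000396) were lower.

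Of the 3 transcription factors Irf7, which drives type I interferon genes, rose by 0.72 against Ang II (adjusted p = 0.000413) and by 0.65 against vehicle (adjusted p = 0.00021). Of 5 brakes on the pathway, Sigirr was lower than with Ang II relative to the shift (-0.48, adjusted p = 0.0343) but not as deposited (-0.16, adjusted p = 0.48), and Tollip was higher than with vehicle (0.40, adjusted p = 0.0492). Both tested receptors of the mouse that humans lack rose: Tlr13, which recognises bacterial ribosomal RNA, by 1.70 (adjusted p = 0.000192), and Tlr12 by at least 0.73 (adjusted p = 0.000968). Against vehicle they rose by 1.15 (adjusted p = 0.00159) and 0.65 (adjusted p = 0.00331).

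**Figure D5:**
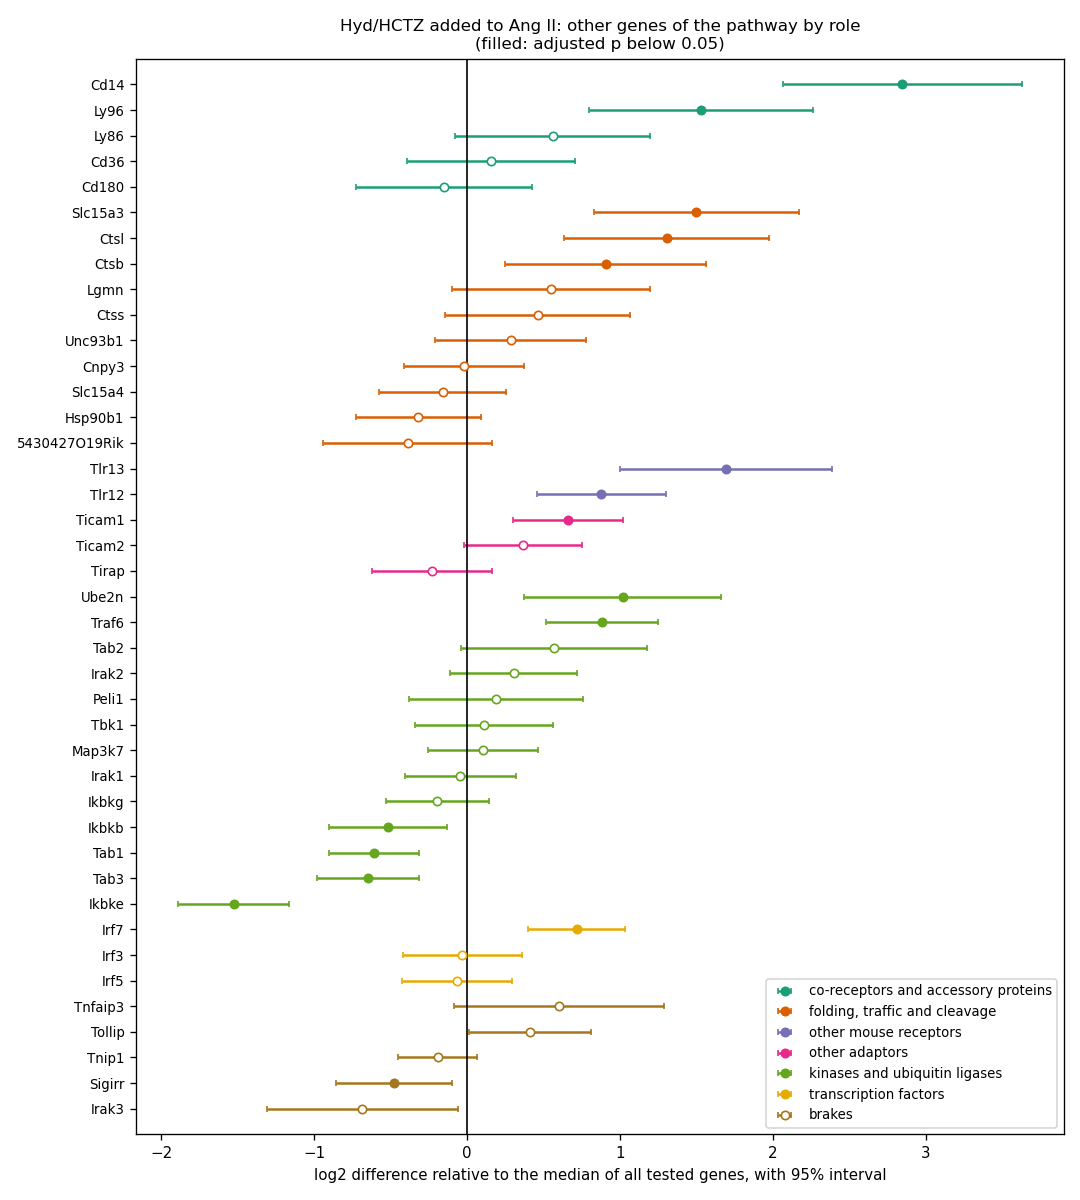
Log2 differences of the 41 tested pathway genes (y axis, grouped and coloured by role) for Hyd/HCTZ with Ang II against Ang II alone, relative to the median of all tested genes (x axis, with 95% intervals). Filled points passed the test; Cd14 lies farthest to the right at 2.85 and Ikbke farthest to the left at -1.53.

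Across the 28 arrays the receptors followed different genes, as a description over arrays that share groups and array sets. Each array was first centred on its own median. Tlr2 was most like Dgat1 (r = 0.88, or 0.54 within groups), Litaf (0.87, 0.52) and Plk3 (0.87, 0.74), and without the Hyd/HCTZ arrays these r were 0.54, 0.44 and 0.48. Tlr7 was most like Clec4a1 (r = 0.87), Lair1 (0.86) and Smpdl3a (0.86), and Tlr8 most like Gfra2 (0.85), Clec4a3 (0.81) and Fcgr4 (0.80); Clec4a1, Clec4a3, Lair1 and Fcgr4 encode receptors of myeloid cells. Within groups these r lay between 0.63 and 0.88.

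Tlr1 was most like Eif2s3y (r = 0.93, and 0.87 without the array labelled vehicle replicate 2), a Y-linked gene, Zdhhc20 (0.90) and Etnk1 (0.90). Tlr4 was most like Dram2 (0.87), Marcks (0.81) and Dnajc10 (0.79), Tlr6 like Sla (0.75), Ube2g1 (0.75) and Xaf1 (0.75), and Tlr9 like Xab2 (0.81), Ipo8 (0.79) and Dock10 (0.76). Without the array labelled vehicle replicate 2 these r were, in the same order, 0.87, 0.76 and 0.73 for Tlr4 and 0.68, 0.66 and 0.64 for Tlr6. Those of Tlr9 were then 0.68, 0.63 and 0.51. Myd88 was most like Cnot8 (0.79), Nabp1 (0.78) and Clec4n (0.78). Between the 8 genes themselves, the neighbours Tlr1 and Tlr6 reached r = 0.66 (0.70 within groups) and the neighbours Tlr7 and Tlr8 r = 0.66 (0.72 within groups), but Tlr1 and Tlr9, which are not neighbours, also had r = 0.66 (0.62 within groups) and Tlr7 and Myd88 r = 0.64 (0.48). Without the array labelled vehicle replicate 2 these r were 0.51 for Tlr1 and Tlr6 and 0.68 for Tlr7 and Tlr8. They were 0.39 for Tlr1 and Tlr9 and 0.66 for Tlr7 and Myd88. Tlr2 and its partner Tlr1 had r = -0.048, and Tlr2 and Myd88 r = 0.58, which was 0.063 within groups.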

How the data were processed

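The authors deposited log2 values for each probe set on each array, with RMA and Partek 6.6 named in the submitters' processing notes; the build is not given in the sources used here. RMA compresses dim probe sets, so small differences there can be understated. Of 35556 probe sets, 21789 carried 1 symbol in GEO's platform annotation, and the brightest was kept per gene. The test, on genes over 5 in 3 or more arrays, was limma 3.58.1 in R 4.3.3: 6 group means in 1 fit over 28 arrays, eBayes, two-sided tests, Benjamini-Hochberg adjustment over 10452 genes, calls below 0.05. With Hyd/HCTZ each gene was tested once more against the shift, the median difference over tested genes. The fit was also run on simulated data with independent errors and with neither a shift of all genes nor array sets. That run therefore says nothing about these features of the arrays. Pathway genes were named as the 3 smallest adjusted p per role among those called relative to the shift; the 3 highest Pearson r named the similar genes. The genes, lists and alternatives (the dim filter, array weights, scaling, eBayes options, probe sets, replicate block, array sets, single arrays) were chosen with earlier results of these data known. No intensities were used, so the number of arrays limits the precision.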

Additional observations from a re-analysis of the deposited data

Results flagged for a closer look

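Of 40 sets of arrays (8 genes in the 5 groups of at least 4 arrays), 5 had 1 array far from the rest, where chance gives about 1 in 20 of independent sets. These sets are not independent, since the 8 genes were read on the same arrays and most flags fell on the same few arrays. On the array labelled wild-type vehicle replicate 2, Tlr1 was 5.22 (next lowest 7.54) and Tlr6 was 3.91 (next lowest 5.18). On Hyd/HCTZ replicate 4, Tlr7 was 5.89 (next lowest 6.58) and Myd88 was 6.75 (next lowest 7.26). Tlr2 was 5.63 on knockout Ang II replicate 2, with the next array at 6.46.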

How the results depend on the processing

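Arrays limit what can be seen: 3 to 7 per group, Hyd/HCTZ in an array set of its own so that no block for array set could be fitted there, and no detection calls for dim probe sets such as Tlr8. Calls of the 8 genes with Hyd/HCTZ against Ang II numbered 3 against the median difference and 2 of 4 tested with the filter above 7; against vehicle they numbered 3, 3 and, with wild-type arrays of sets 2 and 3 only, 2. Relative to the shift they numbered 5 without a filter against Ang II. Against vehicle they numbered 5 with array weights, among them Tlr4 as lower, 1 with the filter above 7 and 6 without a filter. No share of all genes is given for these counts, so they are not read as results about the receptors. With single arrays left out, calls ranged from 4 to 5 against Ang II and 4 to 6 against vehicle, and from 2 to 4 in both relative to the shift. Reversed were Tlr1 against Ang II with sets 2 and 3 only (-0.52, adjusted p = 0.0138) and Tlr4 relative to the shift against vehicle (-0.51 with array weights, adjusted p = 0.0444; -0.58 with sets 2 and 3 only, adjusted p = 0.0153). The surface median for 2-HOBA became -0.20 with the array set block and -0.17 within set 2. For knockout against wild type with vehicle it became 0.66 with the block and 0.69 within set 1, where the endosomal median, the value of the dim Tlr8, became 0.68. These medians include the array labelled vehicle replicate 2. Without it, within set 1, Tlr1 differed by 0.12, Tlr2 by -0.087, Tlr4 by 0.60, Tlr6 by 0.031 and Tlr8 by 0.43. With the block and without that array, Tlr1 differed by 0.31, Tlr2 by -0.14, Tlr4 by 0.57 and Tlr6 by 0.13. The cause was not tested. Relative to the shift, Tlr7 lost its call after quantile normalization against Ang II (0.77, adjusted p = 0.0561), and against vehicle with only the arrays compared (0.67, adjusted p = 0.101) or a common median (0.67, adjusted p = 0.0531). With the filter above 7, Myd88 against vehicle lost its call relative to the shift (0.44, adjusted p = 0.118). Tlr2 and Myd88 passed that filter only through the Hyd/HCTZ arrays, so their calls under it add no support. Another 128 values of single genes changed sign, none called in either setting. The share of called genes that were higher, 77.4% against Ang II and 76.7% against vehicle, was 57.6% and 56.1% after quantile normalization, 51.3% and 46.7% without a filter and 88% and 88.5% with the filter above 7. Sets 2 and 3 only, and the 2 settings without the low array, were chosen after seeing the data. Replicate numbers did not pair the arrays: correlations of same-numbered arrays ran from -0.24 to 0.11 for Hyd/HCTZ against Ang II and from -0.19 to 0.081 against vehicle. With the replicate block, 5 and 6 of the 8 genes were called higher in those comparisons, where 3576 and 4650 of 10452 tested genes were. Relative to the shift Tlr7 against Ang II was then not called (0.69, adjusted p = 0.09). Tlr8 against vehicle was (0.61, adjusted p = 0.0492), but it was tested only through its Hyd/HCTZ arrays. Of all genes, 5503 were called against Ang II and 5919 against vehicle, but 8761 and 10334 without a filter and 2552 and 2679 with the filter above 7. For knockout against wild type the count with vehicle, 1, ran from 0 with the filter above 7 to 1437 with array weights, and was 144 with the array set block and 41 with the low array left out of that; with Ang II, 5, it ran from 3 with array weights to 40 with the array set block. Within set 2, 2-HOBA had 5 called genes in place of 0, and array weights and quantile normalization each called 1 gene for Ang II in the knockout in place of 0.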
